A study of Mus musculus with 9 samples.

Results

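The mitochondrial ribosomal protein genes are those whose symbol starts with Mrpl or Mrps followed by a digit, and 77 of the 24255 rows of the expression table met that rule, 48 of them Mrpl and 29 Mrps. The libraries came from mouse oocytes that had finished growth and were still at the germinal vesicle stage, taken from large antral follicles of C57BL/6 females 46 h after 5 IU of PMSG, a gonadotropin that drives follicle growth. MG oocytes carried an Mtor deletion made by Gdf9-Cre, MZ oocytes one made by Zp3-Cre, and WT oocytes were the wild type, with 3 libraries in each group. Gdf9-Cre acts in oocytes from the primordial follicle onward and Zp3-Cre from the primary follicle onward, so the drivers differ in when they act. The females are given as 23 days old in the series design and as 6 months old in the sample labels, which was not resolved. The number of oocytes or females behind each library is not stated, so p-values measure the spread between libraries, which may be technical.

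The mitochondrial ribosome makes the few proteins that mitochondrial DNA encodes, all of them membrane subunits of the respiratory chain and ATP synthase. Its proteins are encoded in the nucleus, made in the cytosol and imported, and they join the mitochondrial rRNAs in a large and a small subunit. In cultured mammalian cells mTORC1 promotes the translation of mRNAs for nuclear-encoded mitochondrial proteins, mitochondrial ribosomal proteins among them, and with YY1 and PGC-1alpha their transcription. A fully grown oocyte makes almost no new RNA, so the values below are stored mRNA, and they say nothing of translation.

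Of the 77 genes, 50 encode large-subunit and 26 small-subunit proteins. Mrps30 and Mrps18a, named for the small subunit, are counted in the large one, where their proteins sit. Mrps36 is counted in neither, since its protein belongs to the 2-oxoglutarate dehydrogenase complex. By protein, 46 were classed as having a bacterial counterpart and 30 as specific to mitochondria. Mrps18a and Mrps18b were put in the latter class, although they are related to a bacterial protein. All 77 matched a protein-coding gene of GENCODE M21 (GRCm38), 23 of them share exon sequence with another gene of the table, and no source used here states whether counting used strand. Mrps18c, one of 3 paralogues of the bacterial protein of that number beside Mrps18a and Mrps18b, was listed at 0 in all 9 libraries and was not tested, which left 76 genes.

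The summed FPKM (fragments per kilobase of transcript, scaled to the fragments of a library) of all genes was 428329 to 554305 in MG libraries, 657851 to 677618 in MZ libraries and 584503 to 718684 in WT libraries. The value of 1 fragment in a 1 kb transcript, read from the lowest values, was about 1.40 to 2.57 FPKM, so values of a few FPKM rest on few fragments. Mtor itself had 5.25, 6.00 and 4.64 FPKM in MG, 6.55, 4.67 and 4.39 FPKM in MZ, and 3.25, 3.33 and 2.95 FPKM in WT. It was thus no lower in the libraries labelled MG and MZ, and a whole-gene value does not show whether the deleted exons were missing. The 10 oocyte markers summed to 11642 to 28208 FPKM in MG, 30681 to 31621 FPKM in MZ and 23943 to 30535 FPKM in WT. MG library 3 stood lowest, with Gdf9, an oocyte growth factor, at 7327 FPKM against 14940 to 18480 FPKM in the other 8 libraries. Gdf9 made up most of these sums, and not all markers followed it. Nlrp5 was at 944 FPKM in MG library 3, against 483 to 574 FPKM in MZ and 418 to 1033 FPKM in WT. Of the 10 markers, 1 was higher (Nlrp5) and 2 were lower (Figla and Zar1) in MG than in WT at an unadjusted limma p under 0.05. The 16 granulosa and cumulus markers summed to 111 to 189.5 FPKM in MG, 109 to 135 FPKM in MZ and 93.8 to 141 FPKM in WT, with Foxl2, Amhr2 and Slc38a3 listed at 0 in every library. Esr2, an estrogen receptor, made up most of these sums, with 79.8, 89.2 and 149.7 FPKM in MG, 106, 92.9 and 85.7 FPKM in MZ, and 72.3, 77.2 and 107 FPKM in WT. Kitl, the ligand of the Kit receptor, had 4.05, 2.51 and 6.36 FPKM in MG, 3.26, 1.82 and 3.55 FPKM in MZ, and 0.35, 1.15 and 0.398 FPKM in WT. Every MG and MZ library thus lay above every WT library for Kitl, with a log2 fold change of MG against WT of 1.67 and an adjusted limma p of 0.11. Of the 8 such markers tested, 2 were higher (Kitl and Nr5a2) and 1 was lower (Cyp19a1) in MG than in WT at an unadjusted limma p under 0.05, and 0 passed the threshold. The part of other cells in the results below was not tested. In such bulk RNA, fewer cells and less RNA per cell cannot be told apart.

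The mitochondrial ribosomal protein mRNAs were abundant in WT oocytes but far from equal to each other. Their median WT mean was 34.0 FPKM (quartiles 10.9 and 68.6), against 6.37 FPKM over the 10801 genes tested and 12.7 FPKM over 85 rows of cytosolic ribosomal protein genes. Those 85 rows were chosen by a symbol rule that also admits paralogues, and 28 of them were under 5 FPKM. Their median is thus no ranking of the mRNA of one ribosome against the other. The WT mean passed 100 FPKM for 11 mitochondrial ribosomal protein genes and stayed under 10 FPKM for 18, Mrps18c among them. Small-subunit genes had a median of 46.4 FPKM (n = 26) and large-subunit genes one of 23.1 FPKM (n = 50). Genes classed as having a bacterial counterpart and those classed as mitochondria-specific had close medians, 33.4 and 31.7 FPKM. The 6 highest genes held 38.9% and the 20 highest 69.4% of the genes' summed WT mean.

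The highest genes were of both subunits. Mrpl32, whose protein is cut by the mitochondrial m-AAA protease before it enters the large subunit, averaged 352 ± 58.3 FPKM in WT (SD, n = 3, as for all means below). It was followed by Mrpl34 at 336 ± 105, Mrpl14 at 297 ± 37.1, Mrps33 at 294 ± 58.0 and Mrpl18 at 269.8 ± 72.3 FPKM, each within 1 SD of the gene above it. Mrps21 at 227 ± 35.3, Mrps17 at 101 ± 19.2 and Mrps36 at 97.2 ± 22 FPKM led the rest of the Mrps names. Mrpl12, whose protein sits on the large subunit's stalk and also binds mitochondrial RNA polymerase, was at 113 ± 16.4 FPKM. Mrps12, whose protein lies at the decoding centre of the small subunit, was at 90.8 ± 28.2 FPKM. The paralogues Mrps18a and Mrps18b were at 93.5 ± 21.6 and 49.4 ± 6.43 FPKM, and Mrps30 was at 28.3 ± 9.37 FPKM. At the low end, Mrps34 was listed at 0 in WT libraries 1 and 3 and at 3.27 FPKM in WT library 2, and Mrpl19 averaged 1.20 ± 0.0776 FPKM. The spread between WT libraries fell with the level, with a median coefficient of variation of 36.8% for the 17 tested genes under 10 FPKM, 29.4% for the 33 from 10 to 50 FPKM and 20.2% for the 26 above 50 FPKM.

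**Figure D1:**
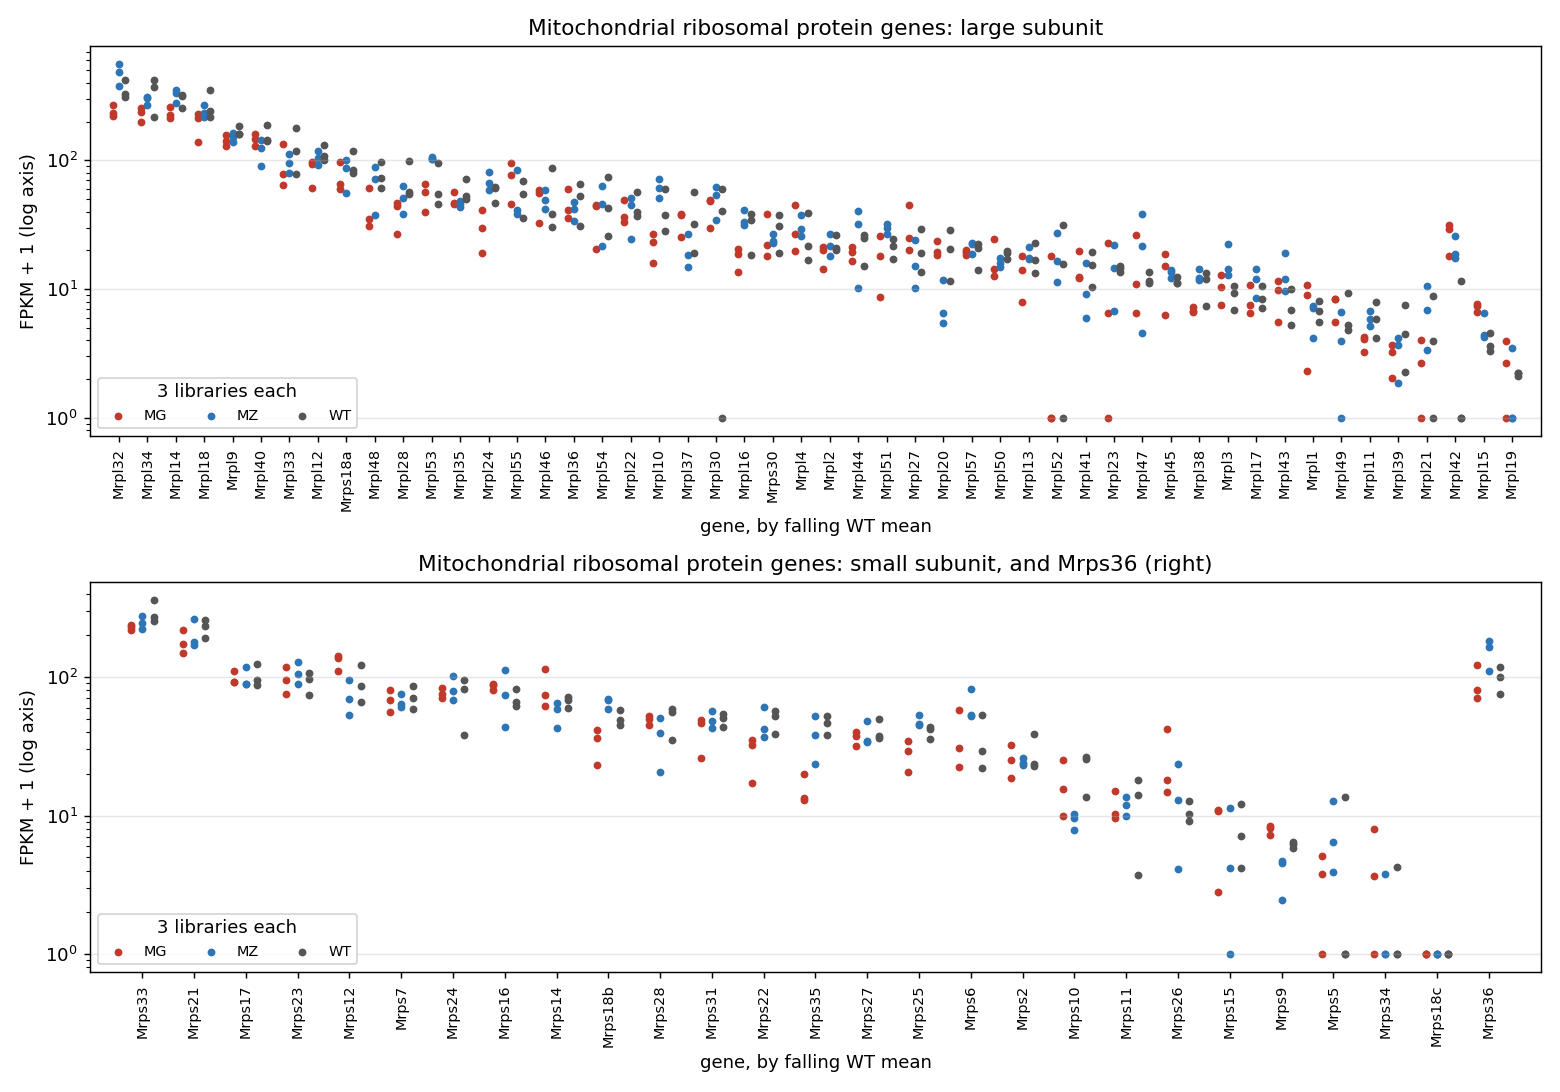
FPKM + 1 (log axis) of each mitochondrial ribosomal protein gene in the 9 libraries, 1 point per library, ordered by WT mean, with large-subunit genes above and small-subunit genes with Mrps36 below. Levels run over more than 2 orders of magnitude in each group, and the 3 groups overlap for most genes.

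Promoters are shown for 4 of the genes named in the comparisons below, Mrpl10, Mrpl32, Mrpl42 and Mrps12. NRF1, GABP and YY1 are known to bind promoters of nuclear genes for mitochondrial proteins. Each window is RefSeq sequence of GRCm38.p6 from 250 bases before to 50 after a start site, given 5′ to 3′ on the gene's strand. The Mrpl10 window is chr11:97041332-97041631 (plus strand) and the Mrpl32 window is chr13:14612988-14613287 (minus strand). The Mrpl42 window is chr10:95501900-95502199 (minus strand) and the Mrps12 window is chr7:28741772-28742071 (minus strand). Capitals mark matches on either strand to GCATGCGC for NRF1, CCGGAAG for GABP and AAGATGGC for YY1.
Mrpl10: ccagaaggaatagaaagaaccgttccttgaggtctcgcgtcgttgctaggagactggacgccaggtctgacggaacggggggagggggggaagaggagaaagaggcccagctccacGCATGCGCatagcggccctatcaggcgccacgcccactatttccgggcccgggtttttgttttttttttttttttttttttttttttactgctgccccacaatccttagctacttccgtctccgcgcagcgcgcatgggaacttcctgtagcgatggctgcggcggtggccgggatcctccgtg
Mrpl32: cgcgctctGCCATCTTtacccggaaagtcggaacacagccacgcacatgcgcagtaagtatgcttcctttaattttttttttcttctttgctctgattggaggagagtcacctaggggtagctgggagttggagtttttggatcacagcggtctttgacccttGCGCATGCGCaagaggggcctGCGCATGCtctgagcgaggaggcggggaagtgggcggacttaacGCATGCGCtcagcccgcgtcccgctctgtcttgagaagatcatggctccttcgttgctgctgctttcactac
Mrpl42: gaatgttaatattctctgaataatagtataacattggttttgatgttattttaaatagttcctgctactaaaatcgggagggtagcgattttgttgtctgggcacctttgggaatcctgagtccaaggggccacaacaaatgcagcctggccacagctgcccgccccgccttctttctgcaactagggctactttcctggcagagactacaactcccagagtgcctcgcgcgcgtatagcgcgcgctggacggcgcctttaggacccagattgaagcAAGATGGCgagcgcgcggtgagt
Mrps12: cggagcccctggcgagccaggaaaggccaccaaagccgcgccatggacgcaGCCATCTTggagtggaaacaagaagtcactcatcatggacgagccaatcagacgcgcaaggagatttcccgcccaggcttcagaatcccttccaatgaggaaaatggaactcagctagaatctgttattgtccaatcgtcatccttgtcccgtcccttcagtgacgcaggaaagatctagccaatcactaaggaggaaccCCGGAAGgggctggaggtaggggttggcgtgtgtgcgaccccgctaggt
Mrpl10 had 1 NRF1 match. Mrpl32 had 1 YY1 match on the reverse strand and 4 NRF1 matches, of which 1 pair, on opposite strands, overlaps in a single capital run. Mrpl42 had 1 YY1 match close to its start site, and Mrps12 had 1 YY1 match on the reverse strand and 1 GABP match. These 4 do not stand for the rest, since only 37 of 74 windows had such a match. Mrpl20, Mrps9, Mrps10 and Mrps25, also named below, had none in their windows.

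RefSeq promoters were matched for 68 of the 77 genes, with 74 windows between them. The NRF1 letters were in 8 windows (10.8%), against 5.48% of 10484 promoters of tested genes. The GABP letters were in 25 windows (33.8%), against 17.8%, and the YY1 letters in 12 (16.2%), against 4.61%. At least 1 of these motifs was in 37 of the 74 windows, against 25.5% of promoters of tested genes and 13.3% of all 32851 promoters. The NFY letters CCAAT, searched in the same way, were in 40.5% of the windows and 38.6% of promoters of tested genes. A match is a description of the letters and not a binding site.

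MG oocytes were set against WT oocytes to ask which mRNAs differ with an Mtor deletion by Gdf9-Cre. No mitochondrial ribosomal protein gene passed limma's test at an adjusted p of 0.05 over all 10801 genes, against 37 of all genes (0.343%). At an unadjusted p under 0.05, 10 of the 76 genes (13.2%) had lower values in MG, against 9.31% of all genes, and 2 (2.63%) had higher values, against 8.43%. In total 12 genes (15.8%) stood at that level, against 17.7% of all genes, so they were no more often there than genes at large. In 13 genes (17.1%) all MG libraries lay below all WT libraries, against 9.89% of all genes, and in 4 (5.26%) they lay above, against 11.6%. Without MG library 3, the library with the lowest FPKM sum, 4 of the 76 genes (5.26%) were lower at that unadjusted p, against 7.55% of all genes. In that setting 15 of the 76 genes had no overlap below WT, a larger share than the 13.9% of all genes. This setting was chosen after seeing the data.

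The median log2 fold change of FPKM + 1 was -0.16 over the 76 genes and 0.04 over all tested genes. It was negative for 49 of the 76 genes and for 47.0% of all genes. Large-subunit genes had a median of -0.20 (35 of 50 negative) and small-subunit genes one of -0.05 (13 of 25 negative). With every library set to the same FPKM sum the sign turned: the genes' median became 0.21, beside 0.36 over all genes, and 53 of 76 were positive. The median stayed negative with upper quartile scaling (-0.11, 47 of 76 negative), quantile normalization (-0.05, 42 negative) and the transcript length trend removed (-0.12, 47 negative). The genes' median minus that of all genes was -0.20 as deposited, -0.19 with upper quartile scaling and -0.15 at equal sums. It was only -0.08 with the length trend removed and -0.06 after quantile normalization. At equal sums, 7 genes (9.21%) had all MG libraries above all WT libraries, against 21.2% of all genes, and 2 (2.63%) had them below, against 3.22%.

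The lowest p in MG against WT belonged to Mrps35, a mitochondria-specific protein of the small subunit (chromosome 6, 147042764 to 147073991, GRCm38). It had 18.9, 12.4 and 12 FPKM in MG, and 51.4, 45.8 and 37.0 FPKM in WT. All MG libraries were below all WT libraries, with a log2 fold change of -1.58 ± 0.31 (SE) and an adjusted p of 0.060 by limma, short of the threshold. In the authors' deposited table its q was 0.025. Mrpl24, the counterpart of a bacterial protein that starts large-subunit assembly (chromosome 3, 87919506 to 87923672), had 28.9, 40.0 and 18.2 FPKM in MG, and 60.3, 61.1 and 45.9 FPKM in WT. Its groups did not overlap either, and its log2 fold change was -0.97 ± 0.28 with an adjusted limma p of 0.13. Mrpl24 shares exon sequence with Rrnad1 on the other strand, so its fragments could be mixed with those of that gene.

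Mrpl10, the protein that anchors the stalk of the large subunit (chromosome 11, 97041560 to 97049213), had 25.6, 22.1 and 15.1 FPKM in MG, and 58.7, 27.1 and 36.9 FPKM in WT. The highest MG library lay just below the lowest WT library, and the log2 fold change was -0.89 ± 0.30 with an adjusted limma p of 0.17. The authors' deposited table gave it a q of 0.030, and these 2 genes, Mrpl10 and Mrps35, were all that had a q under 0.05 there, both of them lower in MG (2.63% of the 76), against 3.05% of all genes. Mrps22, a small-subunit gene whose human counterpart is mutated in a mitochondrial disease, had 34.0, 31.3 and 16.3 FPKM in MG, and 50.9, 55.5 and 37.7 FPKM in WT. Its groups did not overlap and its adjusted limma p was 0.19 at a log2 fold change of -0.84 ± 0.30. Mrpl12, the other stalk protein, had 96.1, 93.2 and 60.1 FPKM in MG, and 99.6, 108 and 131 FPKM in WT, apart by little and with an adjusted limma p of 0.31.

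Among genes with higher MG values, Mrpl42, a mitochondria-specific large-subunit gene (chromosome 10, 95480805 to 95501940), had 28.2, 17.1 and 30.7 FPKM in MG. In WT it was listed at 0 in libraries 1 and 3 and at 10.5 FPKM in library 2. Mrpl30 likewise had 59.3, 39.4 and 0 FPKM in WT, and the source of such zeros was not tested. The Mrpl42 log2 fold change of 3.50 ± 0.77 had an adjusted limma p of 0.077, and with a pseudocount of 0.1 the log2 fold change was 5.70. Without WT library 2, the 1 WT library with a value above 0, it was 4.68 with an adjusted limma p of 0.0015. That setting keeps only the WT libraries that list Mrpl42 at 0, so it is no further support. Over all alternatives the adjusted limma p ran from 0.0015 to 0.21. Mrpl15, a large-subunit gene with a bacterial counterpart, had 6.41, 6.62 and 5.70 FPKM in MG, and 2.31, 3.56 and 2.63 FPKM in WT, with no overlap and an adjusted limma p of 0.19. Mrps12 had 141, 136 and 109 FPKM in MG, and 65.5, 85.8 and 121 FPKM in WT, so its groups overlapped, with an adjusted limma p of 0.33. Mrps26 had 40.9, 16.9 and 13.9 FPKM in MG, and 8.15, 11.8 and 9.21 FPKM in WT, with an adjusted limma p of 0.37.

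**Figure D2:**
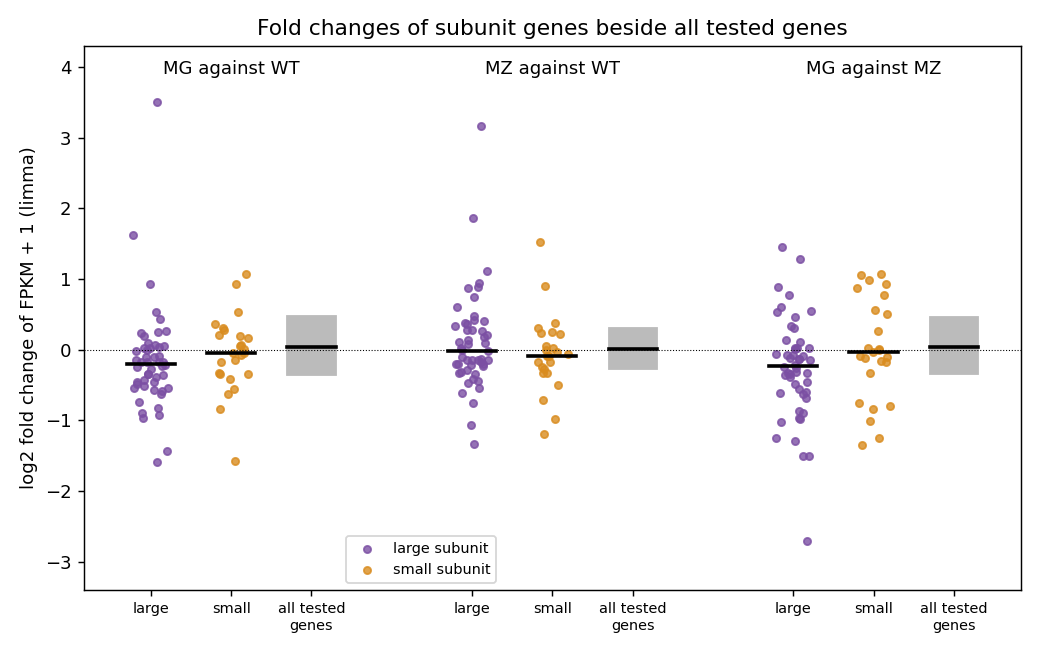
Limma log2 fold change of FPKM + 1 for each tested large- and small-subunit gene in the 3 comparisons (points), beside the quartile range of all tested genes (grey); black lines are medians. In both comparisons of MG the large-subunit median lies below 0, at -0.20 against WT and -0.23 against MZ, a sign that turns when libraries are set to the same FPKM sum; the highest point in both comparisons with WT is Mrpl42.

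MZ oocytes were set against WT oocytes for the Mtor deletion by the later driver, Zp3-Cre. Again no mitochondrial ribosomal protein gene passed limma's test, against 4 of all genes (0.037%), and none had a q under 0.05 in the authors' deposited table, against 0.787% of all genes. At an unadjusted p under 0.05, 6 genes (7.89%) had higher values in MZ, against 2.68% of all genes, and 2 (2.63%) had lower values, against 3.62%. In 6 genes (7.89%) all MZ libraries lay above all WT libraries, against 5.67% of all genes, and in 3 (3.95%) they lay below, against 6.52%. The median log2 fold change was -0.05 over the 76 genes and 0.01 over all genes, and 35 of the 76 were positive. At equal FPKM sums the genes' median was -0.09, beside -0.03 over all genes.

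Mrpl20, the counterpart of an early-binding protein of the bacterial large subunit, had 5.49, 10.7 and 4.49 FPKM in MZ, and 19.6, 10.6 and 27.6 FPKM in WT. The highest MZ library reached just above the lowest WT library, and the log2 fold change of -1.34 ± 0.38 had an adjusted limma p of 0.60. Mrps10, of the small subunit's head, had 8.55, 9.20 and 6.88 FPKM in MZ, and 12.5, 24.5 and 25.4 FPKM in WT, with no overlap and an adjusted limma p of 0.66. Mrpl37 had 17.3, 25.6 and 13.8 FPKM in MZ, and 18.0, 31.2 and 56.2 FPKM in WT, with overlap and an adjusted limma p of 0.79.

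Mrpl42 had 16.3, 24.8 and 17.8 FPKM in MZ, above all 3 WT values given above, with an adjusted limma p of 0.52. The MG and MZ comparisons share those WT libraries, 2 of which list it at 0. Mrpl53, a mitochondria-specific large-subunit gene, had 106, 102 and 102 FPKM in MZ, and 44.8, 54.2 and 94.5 FPKM in WT, with no overlap, a log2 fold change of 0.75 ± 0.28 and an adjusted limma p of 0.74. Mrpl3, a large-subunit gene with a bacterial counterpart, had 11.8, 21.6 and 13.4 FPKM in MZ, and 5.83, 9.56 and 8.26 FPKM in WT, with an adjusted limma p of 0.74. Mrps6, which shares exon sequence with Slc5a3, had 80.4, 52.2 and 51.5 FPKM in MZ, and 52.5, 28.4 and 21.1 FPKM in WT, and 2 of its MZ libraries lay just below the highest WT library. Its adjusted limma p was 0.77.

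MG and MZ oocytes were compared with each other, since both are labelled as Mtor deletions, made by drivers that act from different stages. Limma's test was passed by 0 of the 76 genes, against 14 of all genes (0.13%). At an unadjusted p under 0.05, 13 genes (17.1%) had lower values in MG, against 9.32% of all genes, and 4 (5.26%) had higher values, against 8.32%. Without MG library 3, 9 of the 76 genes (11.8%) were lower at that unadjusted p, against 7.43% of all genes. In 14 genes (18.4%) all MG libraries lay below all MZ libraries, against 12.3% of all genes, and in 4 (5.26%) they lay above, against 12.8%. In the authors' deposited table, 9 genes (11.8%) were lower in MG at a q under 0.05, against 6.21% of all genes, and 2 (2.63%) were higher, against 2.83%. The median log2 fold change was -0.13, beside 0.04 over all genes, with large-subunit genes at -0.23 and small-subunit genes at -0.04. At equal FPKM sums the median became 0.27, beside 0.39 over all genes. With upper quartile scaling it was -0.11, beside 0.06, and after quantile normalization -0.02, beside 0.01. At equal sums 18 genes (23.7%) had all MG libraries above all MZ libraries, against 28.1% of all genes, and 9 (11.8%) below, against 4.58%.

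Mrpl10 stood out with 25.6, 22.1 and 15.1 FPKM in MG, and 70.7, 59.9 and 50.4 FPKM in MZ. The groups lay wide apart, with a log2 fold change of -1.50 ± 0.30, an adjusted limma p of 0.073 and a q of 0.00064 in the authors' deposited table. Mrpl32 (chromosome 13, 14608184 to 14613165) had 232, 268 and 219 FPKM in MG, and 482, 563 and 377 FPKM in MZ. Its WT libraries, at 419, 312 and 325 FPKM, lay above every MG library and partly within the MZ range. The log2 fold change of MG against MZ was -0.97 ± 0.20, with an adjusted limma p of 0.073 and a q of 0.00064 in the authors' deposited table. Psma2, a proteasome gene that starts 75 bp from Mrpl32 in the other direction, had a log2 fold change of -0.28 with an adjusted limma p of 0.58.

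Mrpl24 had 28.9, 40.0 and 18.2 FPKM in MG, and 80.4, 65.9 and 57.7 FPKM in MZ, with no overlap, a log2 fold change of -1.25 ± 0.28 and an adjusted limma p of 0.080. Mrps35 had 18.9, 12.4 and 12 FPKM in MG, and 37.4, 22.4 and 51.5 FPKM in MZ, also with no overlap, with a log2 fold change of -1.25 ± 0.31 and an adjusted limma p of 0.084. Their q in the authors' deposited table was 0.026 and 0.013. Both genes thus had every MG library below every MZ library. Mrpl53 had 39.0, 64.0 and 56.3 FPKM in MG, and 106, 102 and 102 FPKM in MZ, with no overlap and a deposited q of 0.036 from the authors. Mrpl16, a large-subunit gene with a bacterial counterpart, had 17.7, 19.4 and 12.6 FPKM in MG, and 40.0, 30.6 and 32.1 FPKM in MZ, with the same q in the authors' deposited table. Mrps36, the gene of the dehydrogenase complex, had 122, 69.4 and 80.2 FPKM in MG, and 182, 109 and 164 FPKM in MZ, with overlap and a q of 0.027 in the authors' deposited table. The limma adjusted p was 0.11, 0.12 and 0.18 for Mrpl53, Mrpl16 and Mrps36.

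Genes with higher MG values, fewer than those with lower values on the deposited scale but not at equal FPKM sums, included Mrps12. Mrps12 had 141, 136 and 109 FPKM in MG, and 52.4, 68.3 and 94.2 FPKM in MZ, with no overlap, a log2 fold change of 0.87 ± 0.27, an adjusted limma p of 0.13 and a q of 0.024 in the authors' deposited table. Sars2, the mitochondrial seryl-tRNA synthetase gene that starts 172 bp away in the other direction, had 1.08 ± 0.62 with an adjusted limma p of 0.39. Mrpl20 had 22.8, 17.3 and 18.6 FPKM in MG, and 5.49, 10.7 and 4.49 FPKM in MZ, with no overlap, a log2 fold change of 1.45 ± 0.38 and an adjusted limma p of 0.092. Mrps14, of the small subunit, had 61.2, 73.2 and 113 FPKM in MG, and 57.5, 64.1 and 41.8 FPKM in MZ, with overlap, an adjusted limma p of 0.28 and a q of 0.040 in the authors' deposited table.

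**Figure D3:**
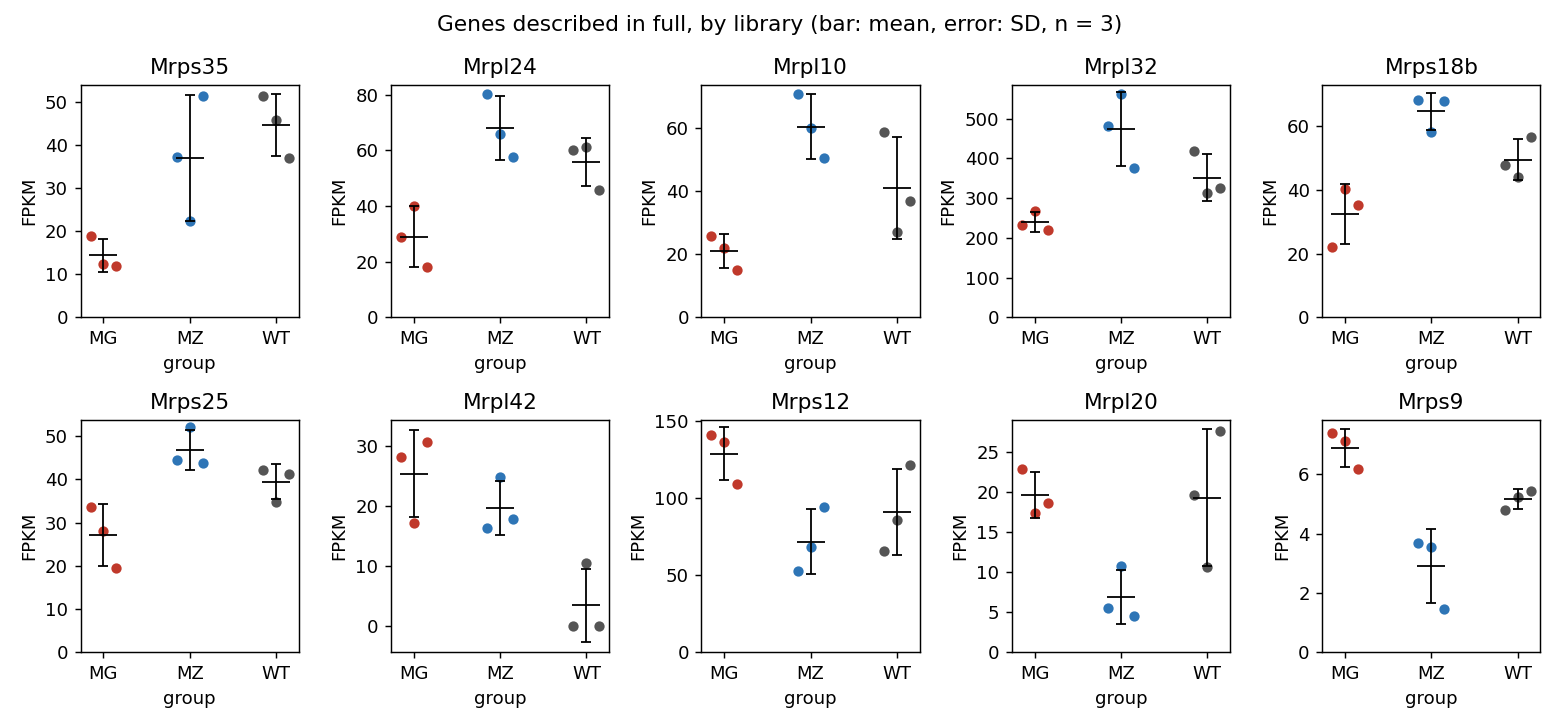
FPKM of 10 mitochondrial ribosomal protein genes by group, 1 point per library, with the mean (bar) and SD (error bar, n = 3). Mrps35, Mrpl24, Mrpl10, Mrpl32, Mrps18b and Mrps25 have all MG libraries below all MZ and WT libraries, while Mrps9 has them above. The genes shown were chosen: among the 76 tested, 10.5% had MG below all others, against 5.31% of all genes. Another 2.63% had MG above, against 6.42% of all genes. At equal FPKM sums the MG and WT libraries of Mrps18b and of Mrps25 overlap.

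Across all 3 groups, 8 of the 76 genes (10.5%) had every MG library below every MZ and WT library, against 5.31% of all genes. They were Mrpl10, Mrpl24, Mrpl32, Mrpl38, Mrps18b, Mrps22, Mrps25 and Mrps35, 4 from each subunit. This order of 3 groups was counted on the deposited scale only. At equal FPKM sums 2 of the 76 genes (2.63%) had all MG libraries below all WT libraries, against 3.22% of all genes. Below all MZ libraries they lay in 9 (11.8%), against 4.58% of all genes. Every MG library lay above all others for Mrpl15 and Mrps9 (2.63%), against 6.42% of all genes. Every MZ library lay above all others for 4 genes (5.26%), Mrpl51, Mrpl53, Mrps18b and Mrps25, against 1.69% of all genes. Every MZ library lay below all others for Mrps9 alone, against 1.77% of all genes. In Mrps18b, Mrps25 and Mrps9 the MG and MZ libraries lay on opposite sides of all WT libraries, against 0.528% of all genes. Mrpl42 was the 1 gene with every WT library below all others, against 1.88% of all genes, and no gene had every WT library above, against 2.29%.

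Taken as a sum, the 77 genes had 4148, 3833 and 3451 FPKM in MG, 4440.3, 4952 and 4316 FPKM in MZ, and 4722, 4218 and 4761 FPKM in WT. All MG sums were below all others. As a share of each library's FPKM sum they made up 0.748, 0.746 and 0.806% in MG, 0.655, 0.733 and 0.656% in MZ, and 0.657, 0.722 and 0.728% in WT, so that by share all MG libraries were above all others. The FPKM sums of all genes, given above, were also lower in every MG library than in any other, while the oocyte marker sums of MG and WT overlapped. The part of both in these differences was not tested. The ratio of large- to small-subunit sums was 1.73, 1.79 and 1.49 in MG, 1.91, 2.05 and 2.17 in MZ, and 2.15, 1.70 and 1.97 in WT. This ratio does not change with the scaling of a library, and its MG values lay below the MZ values and overlapped the WT values. It weighs the highest genes most. Mrpl32, the highest, had 232, 268 and 219 FPKM in MG, and 482, 563 and 377 FPKM in MZ. The ratio is thus no measure of the large-subunit genes in general, and the part of Mrpl32 in it was not tested.

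**Figure D4:**
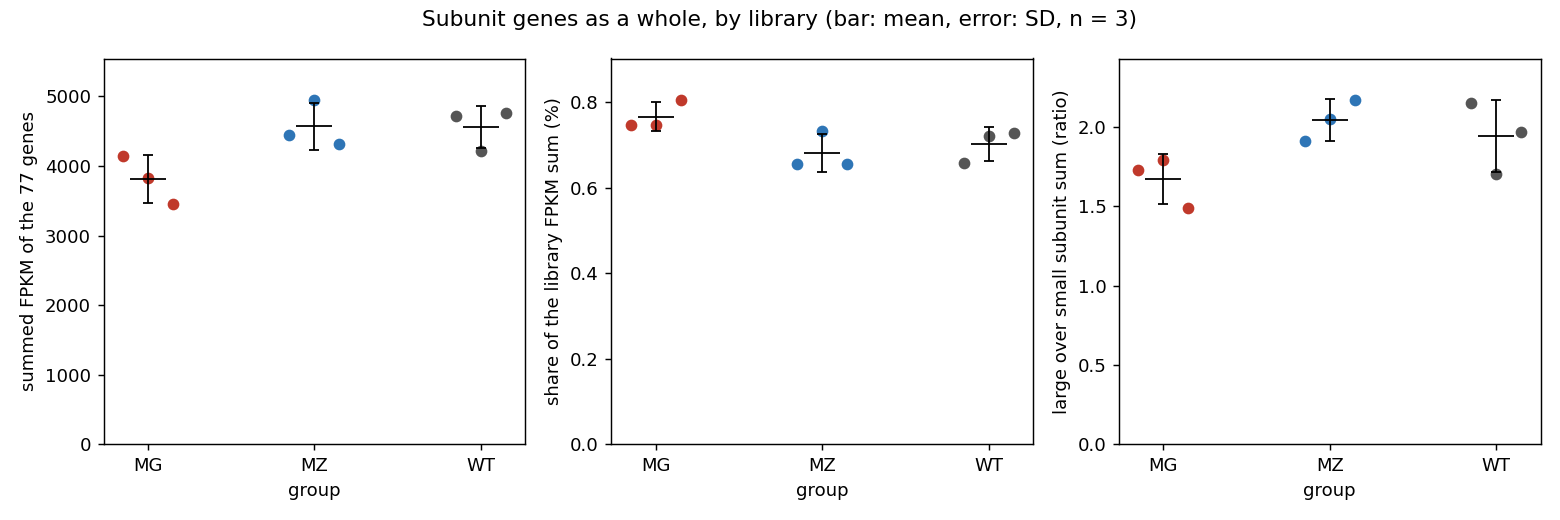
Summed FPKM of the 77 genes (left), their share of each library's FPKM sum in percent (middle) and the ratio of large- to small-subunit sums (right), 1 point per library, with mean and SD (n = 3). MG libraries lie lowest by sum (3451 to 4148 FPKM) and highest by share (0.746 to 0.806%).

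Other genes of mitochondrial gene expression were counted by list, and none passed limma's test in any comparison on the deposited scale. Of 6 mitochondrial ribosome proteins with other names, all 6 had negative log2 fold changes in MG against WT (median -0.39), against 47.0% of all genes, and 2 were lower at an unadjusted p under 0.05, against 9.31% of all genes. At equal FPKM sums 3 of the 6 were negative and 3 positive. Gadd45gip1, a large-subunit protein at the tunnel exit, had 247, 201 and 106 FPKM in MG, 517, 462 and 453 FPKM in MZ, and 591, 373 and 373 FPKM in WT. All MG libraries were below all others, with an adjusted limma p of 0.081 against WT and 0.073 against MZ. Dap3, a GTP-binding protein of the small subunit, named after its values were seen, had 7.86, 8.74 and 4.41 FPKM in MG, and 13.2, 12.1 and 12.6 FPKM in WT, with an adjusted limma p of 0.19.

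Of 28 assembly factors, 4 were lower and 2 higher in MG than in WT at an unadjusted p under 0.05, beside 9.31% lower and 8.43% higher over all genes. Their median log2 fold change was 0.05, or 0.37 at equal FPKM sums and -0.06 after quantile normalization. Ddx28, an RNA helicase of large-subunit assembly, had 190.1, 188 and 134 FPKM in MG, 275, 261 and 256 FPKM in MZ, and 336, 303 and 312 FPKM in WT. Every MG library was below every other library, with a log2 fold change against WT of -0.91 ± 0.18 and an adjusted limma p of 0.060. Malsu1, which binds the maturing large subunit, had 4.29, 6.54 and 2.35 FPKM in MG, 8.37, 27.1 and 17.0 FPKM in MZ, and 14.8, 32.1 and 20.9 FPKM in WT, again with MG below all others. Its adjusted limma p was 0.092 for MG against MZ. Ftsj2, an rRNA methyltransferase, led the higher side at 1.82, 2.81 and 1.02 FPKM in MG and was listed at 0 in all WT libraries. Such values are close to that of 1 fragment in a 1 kb transcript.

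Of 11 genes of mitochondrial DNA transcription and replication, 3 were higher in MG than in WT at an unadjusted p under 0.05 and 0 were lower, beside 8.43% and 9.31% of all genes. Mterf2, a DNA-binding protein of the mitochondrial termination factor family, had 3.29, 3.80 and 1.83 FPKM in MG and was listed at 0 in every MZ and WT library, with an adjusted limma p of 0.060 against WT. Tfam, which packs mitochondrial DNA and starts its transcription, was named after its values were seen. It had 20.2, 14.3 and 11 FPKM in MG, 7.53, 7.78 and 6.90 FPKM in MZ, and 5.49, 3.28 and 5.66 FPKM in WT, with MG above all others and an adjusted limma p of 0.075 against WT. At equal FPKM sums Tfam and Mterf2 passed the threshold against WT, with adjusted limma p of 0.033 and 0.039, while after quantile normalization these were 0.13 and 0.11. The Mterf2 values in MG are close to that of 1 fragment in a 1 kb transcript, 1.40 to 2.45 FPKM in MG. With 0 in every WT library, its p rests on few fragments. Of 15 translation factors, 1 was lower in MG than in WT at an unadjusted p under 0.05, the recycling factor Mrrf with a log2 fold change of -0.91 ± 0.31 and an adjusted limma p of 0.17. Of 12 mitochondrial aminoacyl-tRNA synthetases, 0 stood at an unadjusted p under 0.05 in any limma comparison.

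**Figure D5:**
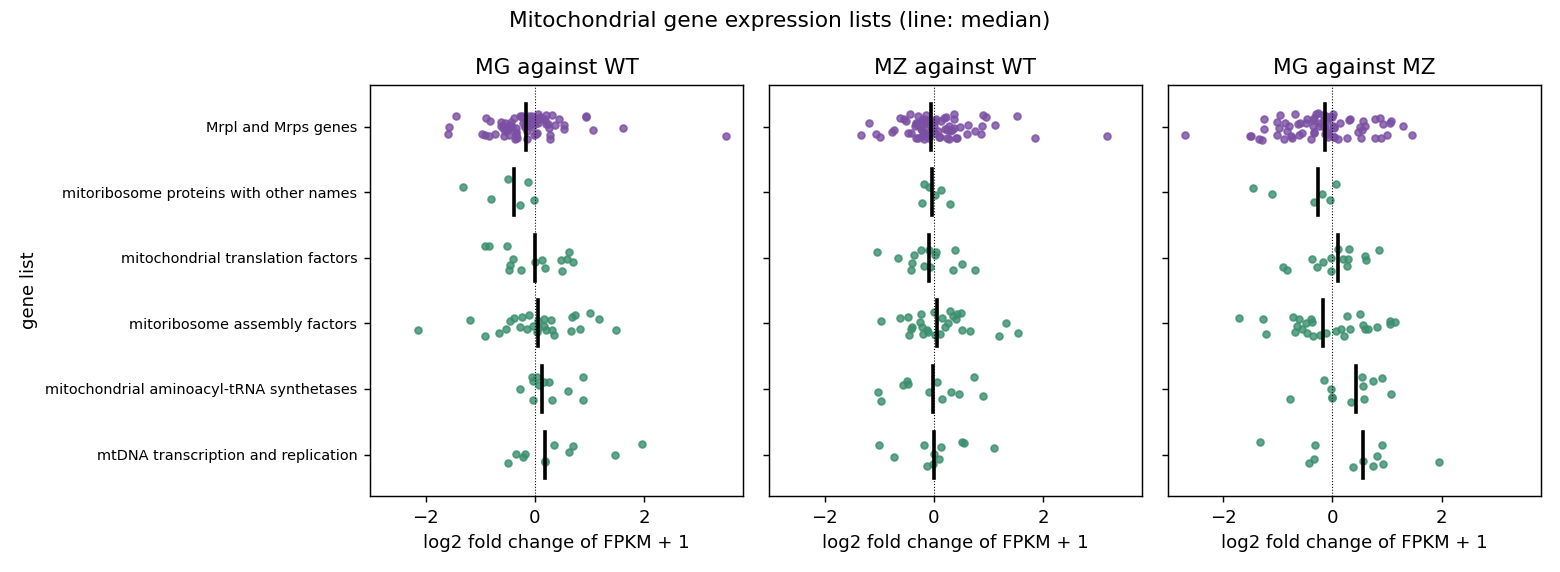
Limma log2 fold change of FPKM + 1 for the tested Mrpl and Mrps genes and 5 lists of related mitochondrial genes, 1 point per gene, with the list median as a black line. In MG against WT the medians run, top to bottom, at -0.16, -0.39, 0.01, 0.05, 0.12 and 0.19 on the deposited scale; no gene passed the test in any comparison on that scale.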

How the data were processed

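RNA of oocytes from 3 groups (MG, MZ and WT, 3 libraries each) was amplified by Smart-seq2 and sequenced as 150 bp read pairs, per the labels' protocols and the design text. The authors' alignment used TopHat2 2.0.13 and mm10, and their FPKM come from Cufflinks 2.2.1, per the submitters' processing notes. The deposited q-values come from Cuffdiff at its defaults, per the design text. No source used here names the annotation.

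Of 24255 rows, 27 with a date as symbol were left out. Genes with FPKM of at least 1 in 3 of the 9 libraries (10801) were fitted on log2(FPKM + 1), a scale that understates changes of low genes. The fit used limma 3.58.1 in R 4.3.3 with a variance trend, all 9 libraries in 1 model and 6 residual degrees of freedom. Tests were two-sided with Benjamini-Hochberg adjustment within each contrast, and the script was checked on simulated data. No count model was used, since FPKM are normalized. The FPKM of 1 fragment was read from low values of 2227 single-transcript genes of at least 1500 bp. Groups with no overlap have every library of one beyond every library of the other. Motifs were searched in RefSeq promoters of GRCm38.p6.

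The genes and lists were chosen with earlier results of these data known. Named genes are the 4 highest WT means of the Mrpl and of the Mrps names and up to 4 per comparison and direction with the smallest p. Genes with an authors' q under 0.05, untested genes and some with a known role were added, as was the gene with the smallest p per direction in related lists. Other pseudocounts, filters, scalings and fits, the replicate block and fits without single libraries were tried as alternatives.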

Additional observations from a re-analysis of the deposited data

Results flagged for a closer look

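Mrps18b, Mrps25 and Mrps9 had their MG and MZ libraries on opposite sides of all WT libraries, which held for 3 of the 76 genes and for 0.528% of all genes. The difference between MG and MZ was tested as a limma contrast and passed the threshold for none of them, while the authors' deposited table gave Mrps18b a q of 0.012 and Mrps25 a q of 0.0031. Mrps18b had 22, 40.1 and 35.1 FPKM in MG, 68.0, 57.9 and 67.8 FPKM in MZ, and 47.6, 44.1 and 56.5 FPKM in WT, with a log2 fold change of MG against MZ of -1.01 and an adjusted limma p of 0.082. Mrps25 had 33.7, 28.0 and 19.5 FPKM in MG, 44.5, 52.2 and 43.9 FPKM in MZ, and 42.3, 34.8 and 41.3 FPKM in WT, with -0.80 and an adjusted limma p of 0.11. Mrps25 shares exon sequence with Nr2c2 on the other strand. Mrps9 went the other way, with 7.40, 7.12 and 6.18 FPKM in MG, 3.68, 3.55 and 1.47 FPKM in MZ, and 4.80, 5.25 and 5.44 FPKM in WT, a log2 fold change of 1.07 and an adjusted limma p of 0.14. At equal FPKM sums the MG and WT libraries of Mrps18b and of Mrps25 overlapped, while Mrps9 kept its order.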

How the results depend on the processing

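The count of all genes past limma's threshold was 37 in MG against WT, and 17 with genes at FPKM above 0, 66 at equal FPKM sums, 21 after quantile normalization, 5 from the 6 libraries alone, 13 with the replicate block and 3 (without WT 3) to 32 (without MG 1) with 1 library left out, 23 or fewer without any library but MG 1. It was 4 in MZ against WT, and 2 with a pseudocount of 0.1, 2 with FPKM above 0, 0 with FPKM of at least 5, 1 at equal sums, 1 after quantile normalization, 7 without limma's trend, 0 with the block and 0 (without WT 3 or any MZ library) to 6 (without MG 1) with 1 library left out. It was 14 in MG against MZ, and 6 with the pseudocount of 0.1, 9 with FPKM above 0, 31 at equal sums, 73 from 6 libraries, 159 with the block and 0 to 213 with 1 library left out, 213 without WT 1, 210 without MG 1 and 9 or fewer without any other. The cause of these shifts was not tested. Of the mitochondrial ribosomal protein genes, 1 passed in MG against WT with the transcript length trend removed (Mrps35, adjusted p 0.046), and 0 to 1 with 1 library left out. In MZ against WT 0 to 1 passed with 1 library left out. Without WT library 2, which leaves only the WT libraries that list it at 0, Mrpl42 passed in both (0.0015 in MG, 0.0029 in MZ). In MG against MZ 1 passed from 6 libraries (Mrpl10, 0.045), 3 with the block (Mrpl10, 0.03, Mrpl24, 0.036, and Mrpl32, 0.048) and 0 to 2 with 1 library left out, where Mrpl10 passed without WT library 1 (0.025) or MG library 1 (0.042) and Mrpl32 without WT library 1 (0.035). Whether the replicate numbers pair the libraries is not stated. Deviations of same-numbered libraries correlated at -0.0702 to 0.0731 and those of other libraries at -0.114 to 0.0817. With 3 libraries a group this cannot settle the pairing. The genes' median log2 fold change was -0.16 in MG against WT, and 0.21 at equal sums, -0.05 after quantile normalization (0.01 over all genes) and -0.26 to -0.10 with 1 library left out. It was -0.05 in MZ against WT, with -0.06 to 0.05 (without MZ library 1) on leaving out a library. It was -0.13 in MG against MZ, and 0.27 at equal sums, -0.02 after quantile normalization (0.01 over all genes) and -0.27 to -0.09 with 1 library left out. For the genes named by smallest p or authors' q, 541 of 551 alternatives kept direction and side of the threshold, 10 newly passed it and 0 turned direction. These genes were picked from the same libraries and none passed in the main fit. Keeping direction and side was thus largely fixed in advance and is no support for them. Without MG library 3, 4 genes rather than 10 were lower in MG than in WT at an unadjusted p under 0.05. About 1.40 to 2.57 FPKM per fragment limits the genes under 5 FPKM most.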

Other observations

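Mrpl52, a mitochondria-specific large-subunit gene, was listed at 0 in MG libraries 2 and 3 and at 17.1 FPKM in MG library 1. It had 15.4, 10.3 and 26.5 FPKM in MZ, and 14.7 and 30.6 FPKM in WT libraries 1 and 2, with WT library 3 listed at 0. Helq, which starts 29 bp from Mrps18c in the other direction, had a log2 fold change of -0.75 ± 0.24 in MG against WT, with an adjusted limma p of 0.15, while Mrps18c was listed at 0 throughout. Fau, which encodes a cytosolic ribosomal protein and starts 59 bp from Mrpl49 in the other direction, had -1.61 ± 0.28 in MG against MZ, with an adjusted limma p of 0.062. These genes were named after their values were seen.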
